A study of Mus musculus and Homo sapiens with 12 samples.

Results

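The ZNF genes of chromosome 19 were taken as the protein-coding genes of the GENCODE 44 annotation (GRCh38) that lie on this chromosome and whose symbol is ZNF followed only by digits. This rule gave 240 genes among the 1476 coding genes of the chromosome and the 20033 coding genes of the annotation, and it used no measured value. Their Kbu marks were read in 4 CUT&Tag libraries of the CCD841 line, which was grown from the epithelium of a normal human colon. All 4 came from cells treated with 1 mM sodium butyrate (NaBu), 2 libraries with an antibody against H3K18bu and 2 with an antibody against H4K12bu. The labels give 12 to 16 hours of treatment. Every group therefore shares the same NaBu treatment, and no library of untreated CCD841 cells and no control library was analysed here, so no value below is a response to butyrate. Nothing in the labels says whether the replicates were separate cultures, and p-values measure only the spread between these libraries.

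C2H2 zinc finger proteins are the largest family of human transcription factors, and each finger is a short loop held around a zinc ion by a pair of cysteines and a pair of histidines. Most members on chromosome 19 also carry a KRAB domain, which binds TRIM28 (KAP1). TRIM28 brings the methyltransferase SETDB1 and HP1 proteins to DNA, and many of these factors thereby silence retrotransposons. The genes stand in clusters of tandem copies, and in many cell types the clusters, above all the exons that encode the fingers, are covered by H3K9me3 laid down through ZNF274 and SETDB1.

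In these gene models the fingers sat almost wholly in the last exon. A search of the translated coding sequences for the spacing of the cysteines and histidines found 2997 matches, 2956 of them in the last exon, and 234 of the 240 members had every match there. The median member had 12 fingers and ZNF208 had the most, 36. The last exon had a median length of 3354 bp in members and 739 bp in the other 1236 coding genes of chromosome 19. It was also poorer in G and C, with a median of 40.7% outside the start window against 56.8%. A match to the KRAB A box was found in 197 members and not in 43, and the same pattern matched 51 other proteins of the chromosome, 32 of them without a finger, so it is not exact. Neighbouring fingers within a gene can be near copies, which matters for any method that places short reads. The sequences below show 2 adjacent fingers of ZNF208, a member with no peak, a finger of ZNF563, a member with strong peaks at its start, and a finger of ZNF865, a member with H4K12bu over its last exon. Each is read 5′ to 3′ on the coding strand of GRCh38 and ends with the linker to the next finger, and capitals mark the codons of the cysteines and histidines that hold the zinc ion.
ZNF208 finger 5 (chr19:21973924-21974007, minus strand): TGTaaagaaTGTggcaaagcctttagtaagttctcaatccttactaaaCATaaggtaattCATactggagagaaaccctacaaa
ZNF208 finger 6 (chr19:21973840-21973923, minus strand): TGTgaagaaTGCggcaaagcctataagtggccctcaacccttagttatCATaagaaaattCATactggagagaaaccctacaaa
ZNF563 finger 5 (chr19:12319011-12319094, minus strand): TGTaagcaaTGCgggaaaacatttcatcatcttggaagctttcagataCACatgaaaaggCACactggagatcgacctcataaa
ZNF865 finger 5 (chr19:55614843-55614926, plus strand): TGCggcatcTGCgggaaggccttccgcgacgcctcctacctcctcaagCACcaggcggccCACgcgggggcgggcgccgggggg
The 2 ZNF208 fingers were identical at 82.1% of their 84 bases. Their GC content was 34.5% and 40.5%, and that of the ZNF865 finger 77.4%. The H4K12bu rows over the last exon of ZNF865 lay outside the finger shown. Over the whole last exon, 88.1% of the 32-base words of the median member were found once in the genome, against 100% in the median other gene.

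The starts of the genes were described with their upstream sequence. Below are stretches upstream of ZNF563, ZNF558 and ZNF208, on the strand of the gene. By the lower −log10 p of the replicates, ZNF563 and ZNF558 were the members with the strongest H3K18bu at their start. Capitals mark the bases from the first to the last summit of the 4 libraries in ZNF563 and ZNF558, and the word CCGGAAG, here on the opposite strand, in ZNF208, where no library had a summit.
ZNF563 (bases -250 to -88, chr19:12333721-12333883, minus strand): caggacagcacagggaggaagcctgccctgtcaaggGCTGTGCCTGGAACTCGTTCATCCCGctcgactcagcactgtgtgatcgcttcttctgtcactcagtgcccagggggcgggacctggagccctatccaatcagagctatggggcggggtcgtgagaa
ZNF558 (bases -600 to -401, chr19:8832705-8832904, minus strand): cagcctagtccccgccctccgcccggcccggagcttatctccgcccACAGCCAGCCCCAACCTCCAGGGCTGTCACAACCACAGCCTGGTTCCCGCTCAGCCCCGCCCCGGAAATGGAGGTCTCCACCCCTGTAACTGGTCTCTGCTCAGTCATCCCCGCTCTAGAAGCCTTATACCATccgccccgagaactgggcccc
ZNF208 (bases -250 to -7, chr19:22010950-22011193, minus strand): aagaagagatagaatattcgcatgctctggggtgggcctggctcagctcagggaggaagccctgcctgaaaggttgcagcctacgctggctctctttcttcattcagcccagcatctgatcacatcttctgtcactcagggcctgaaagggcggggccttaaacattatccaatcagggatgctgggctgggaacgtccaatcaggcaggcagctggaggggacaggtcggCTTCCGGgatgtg
The summits of the 4 libraries fell within 26 bases of each other at ZNF563 and within 133 bases at ZNF558. Words of this kind were counted on both strands from 250 bp before to 50 bp after the start. CCGGAAG was in 43.8% of members (105) and in 15.5% of the other genes of the chromosome. GGGCGG was in 69.2% and 66.1%, GCGCATGC in 3.75% and 5.58%, and TATAAA in 2.92% and 7.69%. The observed over expected ratio of CpG had a median of 0.768 in members and 0.735 in the other genes. CCGGAAG was present in 32.2% of the 59 members with an H3K18bu region at the start in both replicates and in 47.5% of the 181 members without. The other genes of the chromosome went the opposite way, at 18.8% of the 308 with such a region and 14.3% of the 928 without. The ratio of CpG was 0.828 in the 59 and 0.753 in the 181. A match is a description of these windows only.

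Each library had been deposited as a list of peaks, in which a row is a summit with its interval, and rows that overlap were merged here to regions. The lists held 299720 and 299691 rows for H3K18bu and 299445 and 299296 for H4K12bu, close to the limit of 300000 that the names of the deposited lists carry, and each list ended at a different strength. The weakest row had a −log10 p of 5.31 and 4.56 in H3K18bu replicates 1 and 2, and of 4.81 and 2.97 in H4K12bu replicates 1 and 2. On chromosome 19 the rows numbered 4628, 4917, 8043 and 6109 in the same order. All chromosome 19 rows had a q below 0.05 in the H3K18bu libraries and in H4K12bu replicate 1, but 59.5% did in H4K12bu replicate 2. The pileup, the number of read ends stacked at a summit, had a median of 14, 11, 20 and 8 on chromosome 19. H4K12bu replicate 2 was the shallowest by this measure, so its rows rest on few read ends, and a gene without a row is a gene below the limit of that list. The lists do not hold the read total of a library.

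At the start, the members carried each mark about as often as the other coding genes of chromosome 19, and H3K18bu more often than H4K12bu. A row within 1 kb of the start was found for 77 members (32.1%) in H3K18bu replicate 1 and for 101 (42.1%) in replicate 2. For H4K12bu it was found for 55 (22.9%) and 47 (19.6%). The H3K18bu libraries therefore lay above the H4K12bu libraries without overlap, by a mean of 15.8 percentage points, and the two-sided exact permutation test of 2 against 2 libraries gave p = 0.33, the smallest it can give. With the same number of strongest rows from every library the difference was 7.08 points. Of the other genes of chromosome 19, 31.8% and 40.5% had an H3K18bu row and 19.3% and 20.5% an H4K12bu row. The difference between members and other genes averaged 1.15 points over the libraries (two-sided exact permutation of signs over 4 libraries, p = 0.375, smallest possible 0.13). This difference turned negative with a window of 3 kb (-11.6 points), with every annotated transcript (-13.9) and with the same number of strongest rows (-3.32). It was 4.81 points with a window of 500 bp, positive in 4 of 4 libraries (exact permutation of signs, p = 0.13), and 0.344 without H4K12bu replicate 1.

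**Figure D1:**
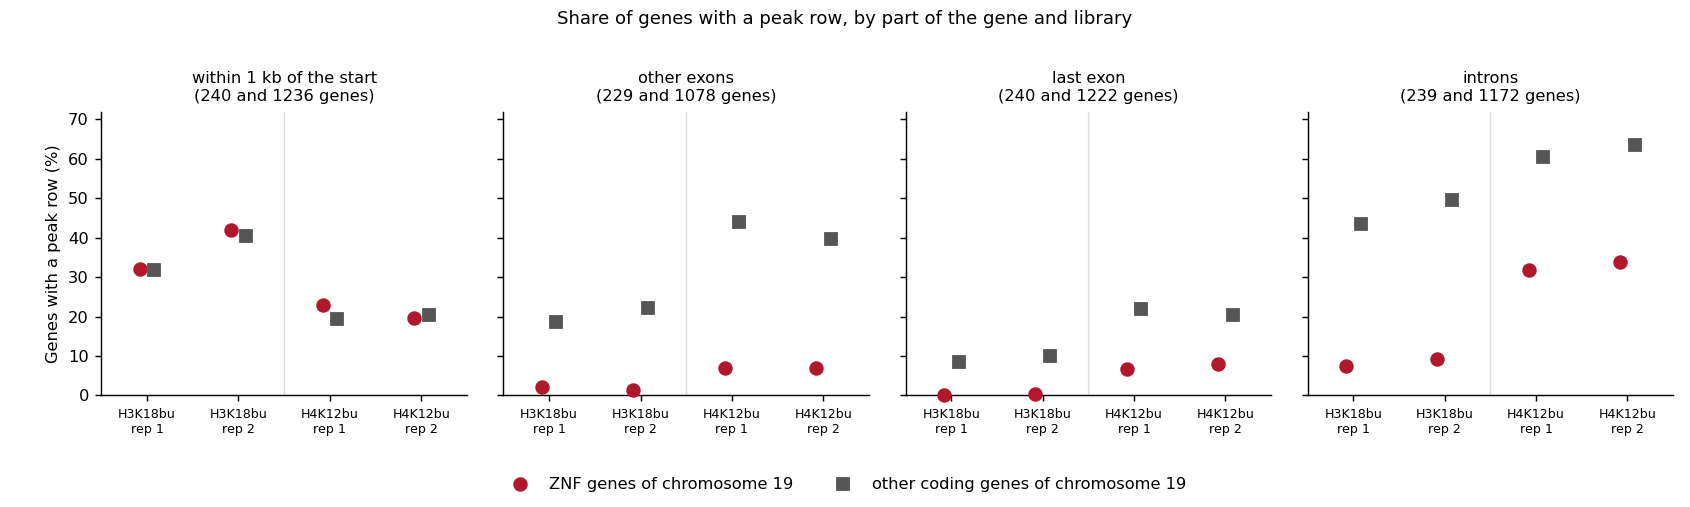
Share of genes with a peak row (y axis, percent) in each of the 4 libraries (x axis), by part of the gene, for the ZNF genes (circles) and the other coding genes of chromosome 19 (squares). Both groups lie together at the start, and the ZNF genes lie lower in every library over other exons, last exons and introns.

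A region present in both replicates was taken as the stricter call. H3K18bu had such a region at the start of 59 members (24.6%), against 24.9% of the other genes of the chromosome and 32.7% of all coding genes. H4K12bu had it at 22 members (9.17%), against 9.22% of the other genes and 14.9% of all coding genes. Of 33 members with a start within 1 kb of another coding gene start, 39.4% had an H3K18bu region and 12.1% an H4K12bu region. Of the 207 without, 22.2% and 8.70% did. Where members share a window, as ZNF565 and ZNF146 do, the same row can count for each. Both marks met at 18 members, or 7.50%, between the 5.74% of the other genes and the 11.6% of all coding genes. H3K18bu alone was called at 41 of the 240 members, beside 237 of the 1236 other genes and 4216 of the 20033 coding genes. H4K12bu alone was called at 4 (ZNF383, ZNF526, ZNF790 and ZNF888, named after their values were seen), beside 43 and 661 of the same genes. Neither mark was called at 177 members (73.8%, beside 71.6% of the other genes and 64.0% of all coding genes). The 18 shared members were 30.5% of those with H3K18bu, where the share was 23.1% in the other genes and 35.6% in all coding genes. They were 81.8% of those with H4K12bu, beside 62.3% and 77.9%. A row in all 4 libraries was found at 19 members (7.92%, beside 6.63% of the other genes and 12.9% of all coding genes). At 107 members no library had a row at the start, 44.6% beside 45.0% of the other genes and 37.5% of all coding genes. When only rows with q below 0.05 were taken, 13 members kept an H4K12bu region and 9 had both marks, since many rows of H4K12bu replicate 2 were weaker than that. With the same number of strongest rows from every library, 27 members had an H3K18bu region, 10 an H4K12bu region and 6 both.

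The rows at member starts were narrow and centred just before the start. The strongest row of a member had its summit at a median of -66 and -71 bp in the H3K18bu libraries and of -68 and -42 bp in the H4K12bu libraries, minus meaning upstream. In bins of 100 bp the coverage of members was highest between 100 bp upstream and the start, at 25.7%, 32.2%, 17.8% and 10.6% in the 4 libraries. The highest bin of the other genes reached 17.7%, 21.9%, 8.25% and 4.88%. Between 2 and 3 kb after the start the coverage of members was 0.0692%, 0.153%, 1.32% and 0.418%, and that of the other genes 1.71%, 1.74%, 2.47% and 1.93%. In each library the ZNF profile was thus the higher at the start and the lower beyond it. These profiles were not tested.

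**Figure D2:**
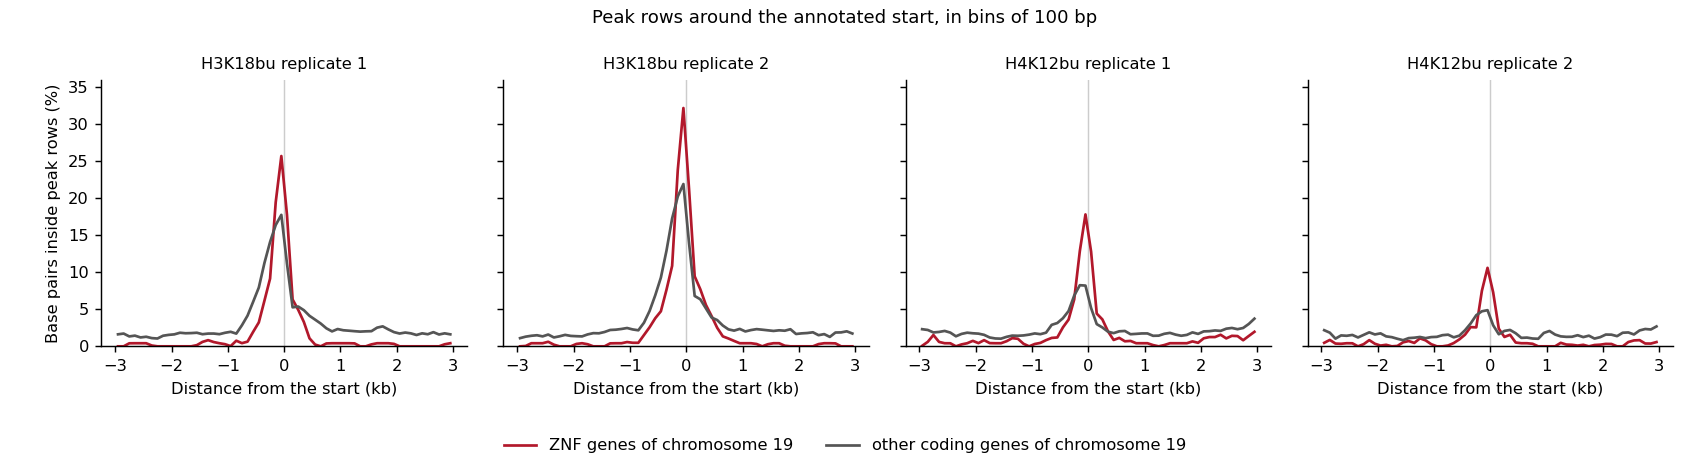
Percent of base pairs inside peak rows (y axis) by distance from the annotated start in kb (x axis), in bins of 100 bp, for each library. The ZNF genes (red) have a higher and narrower peak than the other genes of chromosome 19 (grey) and lie near 0 within 1 kb downstream in the H3K18bu libraries.

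ZNF563 and ZNF558 were among the strongest starts for both marks, and both encode KRAB factors. Members are named here by the lower −log10 p of the replicates, with 5 taken for each mark. The fold is the pileup divided by the background around the peak, with 1 added to each. At ZNF563 (19:12317477 to 12333720, minus strand) the H3K18bu fold was 15.9 and 11.0 and the H4K12bu fold 10.6 and 6.15, on pileups of 40, 25, 26 and 10 read ends. At ZNF558 (8806170 to 8832314, minus strand) it was 12.0, 10.2, 9.20 and 6.15, on pileups of 34, 29, 26 and 10. ZNF558 shares its start window with that of MBD3L1, and its summits lay 422 to 554 bp upstream of its own start. ZNF543 was also in the leading 5 for both marks, with folds of 9.15 and 9.43 for H3K18bu and of 5.19 and 4.76 for H4K12bu. In these 3 genes every library had a row.

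ZNF471 and ZNF575 completed the list for H3K18bu and ZNF383 and ZNF460 that for H4K12bu. ZNF471, a KRAB gene known to be methylated in several cancers, had H3K18bu folds of 12.9 and 8.96 and an H4K12bu row in replicate 1 only (fold 4.32). ZNF575, which had no KRAB match, had H3K18bu folds of 8.92 and 8.12 with summits 878 and 881 bp downstream of the start, and an H4K12bu row in replicate 1 only. ZNF383 went the other way, with H4K12bu folds of 7.47 and 5.03 and no H3K18bu row in either replicate. ZNF460 had rows in every library, with folds of 7.07, 6.13, 4.12 and 4.62. Against these, the members with a row had a median fold of 4.99, 4.25, 4.72 and 3.36 in the 4 libraries, and the median pileup was 11, 9, 12 and 5. The other genes of the chromosome had medians of 4.99, 4.72, 4.32 and 3.49. Most member starts with a row were therefore close to the lower limit of the lists.

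**Figure D3:**
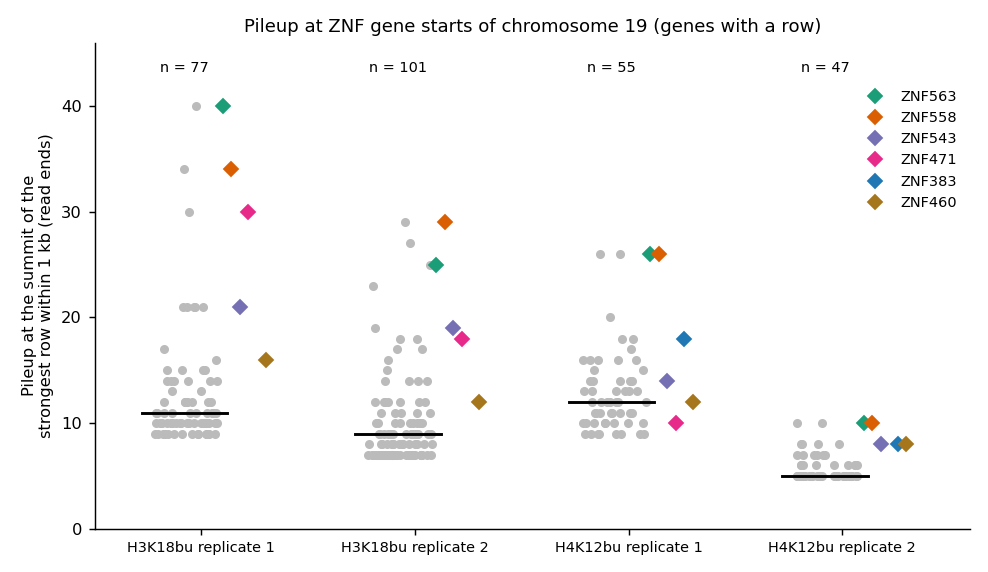
Pileup at the summit of the strongest row within 1 kb of the start (y axis, read ends) for each member with a row, by library. Grey points are members, black lines their medians (11, 9, 12 and 5), and diamonds repeat 6 named members; ZNF563 and ZNF558 reach 40 and 34 in H3K18bu replicate 1 and 10 in H4K12bu replicate 2.

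Of 12 members picked for a known role, ZNF146 and ZNF331 had an H3K18bu region at the start in both replicates and 10 did not, where 24.6% of members and 32.7% of all coding genes had one. ZNF146 encodes a protein of fingers with no KRAB domain. Its folds were 5.41, 6.13, 3.93 and 3.36, with regions of both marks, in a window it shares with the start of ZNF565. ZNF331 had H3K18bu folds of 4.58 and 5.84 and an H4K12bu row in replicate 1 (5.48). ZNF274, which brings SETDB1 to the ZNF clusters, had a row only in H3K18bu replicate 2 (fold 4.72 on 9 read ends). ZNF224, a repressor of the aldolase A gene, had a row only in the same library (3.77), and ZNF382 in that library (3.77) and in H4K12bu replicate 1 (4.72). ZNF568 had a single row, in H4K12bu replicate 1 (4.32), in a window shared with ZNF829. No library had a row within 1 kb of the start of ZNF91 and ZNF93, which silence SVA and LINE-1 elements, of ZNF154 and ZNF582, which are methylated in many tumours, of ZNF536, a gene of the nervous system, or of ZNF580. None of the 4 lists therefore placed either mark at the start of these 6, as at 44.6% of members and 37.5% of all coding genes.

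Over the bodies of the genes the members differed from the other coding genes of chromosome 19. Exons other than the last, outside the start window, had a row in 5 (2.18%) and 3 (1.31%) of 229 members with such sequence in the H3K18bu libraries and in 16 (6.99%) in each H4K12bu library. The other genes had one in 18.6%, 22.1%, 44.1% and 39.6%. Introns had a row in 18 (7.53%) and 22 (9.21%) of 239 members for H3K18bu and in 76 (31.8%) and 81 (33.9%) for H4K12bu, against 43.5%, 49.6%, 60.5% and 63.4% of the other genes. The mean difference was -26.7 points over other exons and -33.6 points over introns, negative in 4 of 4 libraries for each, and the exact permutation of signs gave p = 0.13, the smallest possible. Members were longer than the other genes, with a median length of 25450 bp against 13980 bp. Among genes of like length the differences were -31.0 and -43.7 points. When the summit itself had to lie in the part, the difference over other exons was -14.6 points. Members also had less sequence in other exons, with a median of 4 exons against 7, and 81.8 kb of it in 229 members against 1357 kb in 1078 other genes, so a share of genes with a row there also counts how much sequence a gene offers. By bases the gap over other exons was smaller. Rows covered 1.32%, 0.527%, 3.83% and 2.26% of the other exons of members in the 4 libraries and 2.41%, 2.63%, 11.2% and 5.42% of those of the other genes. Over introns they covered 0.403%, 0.407%, 1.33% and 0.893% against 2.07%, 1.96%, 5.11% and 2.86%.

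The regions of both replicates showed the same order. Over other exons they were found in 2 members for H3K18bu (0.873%, beside 14.2% of all coding genes) and in 10 for H4K12bu (4.37%, beside 27.1%). Over introns they were found in 11 for H3K18bu (4.60%, beside 46.4%) and in 35 for H4K12bu (14.6%, beside 58.6%). By share of genes, other zinc finger genes of the chromosome lay nearer to the members over other exons. Of 31 with 5 or more fingers, 0 had an H3K18bu region there and 3 (9.68%) an H4K12bu region. Of 26 with zinc finger names, 0 and 1 (3.85%) did. H4K12bu regions covered 8.12% of this sequence in the 31 genes and 1.49% in the 26. By bases, regions of both replicates covered 0.688% of the other exons of members for H3K18bu and 2.63% for H4K12bu, against 1.86% and 7.61% in the other genes. Of the intron sequence of members, 0.285% lay in H3K18bu regions and 0.744% in H4K12bu regions, while 1.59% and 3.53% did in the other genes. In the introns H4K12bu thus exceeded H3K18bu, the reverse of the order at the start. The mark difference was -24.5 points in introns and -5.24 in other exons (exact permutation test, p = 0.33 for each, the smallest possible for 2 against 2 libraries). With q below 0.01 these were -13.4 and -3.28 points, and in introns the same number of strongest rows gave -15.5.

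The last exon, which holds the fingers, had almost no H3K18bu and little H4K12bu. H3K18bu had a row there in 0 of 240 members in replicate 1 and in 1 in replicate 2, against 8.51% and 9.98% of the other genes. The single row lay in ZNF541, a gene of the male germ line with 4 finger matches, none of them in its last exon, and had a fold of 4.69 on 9 read ends. H4K12bu had a row there in 16 (6.67%) and 19 (7.92%) members, against 21.8% and 20.4%. That share of members was close to the one over other exons, but the last exons of members are longer, 888 kb in all. By bases, H4K12bu rows covered 1.10% and 0.424% of them, less than of the other exons, and 6.58% and 3.43% of the last exons of the other genes. The mean difference from the other genes was -11.4 points, negative in 4 of 4 libraries (exact permutation of signs, p = 0.13). With the same number of strongest rows it was -7.26 points. Between the marks it was -7.08 points (exact permutation test, p = 0.33), and -3.75 with q below 0.01. Regions of both replicates covered the last exon of 0 members for H3K18bu, beside 7.23% of all coding genes, and of 9 members for H4K12bu (3.75%), beside 13.6%.

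The 9 members with an H4K12bu region over the last exon were ZNF264, ZNF324, ZNF358, ZNF428, ZNF446, ZNF524, ZNF562, ZNF579 and ZNF865, listed after their values were seen. A KRAB match was present in 3 of them (ZNF264, ZNF324 and ZNF562). The region was thus found in 1.52% of the 197 members with a KRAB match and in 6 of the 43 without (13.95%), beside 13.6% of all coding genes. The last exon of ZNF865 is 3677 bp long with 20 fingers and a GC content of 70.6%, and the strongest H4K12bu rows in its region had folds of 4.20 and 2.93 on 30 and 8 read ends. A stronger row of replicate 2 elsewhere in this exon (fold 3.61 on 10 read ends) had no row of replicate 1 over it. ZNF579 (4.58 and 3.38) and ZNF358 (4.97 and 3.19), both without a KRAB match, had last exons of 66.0% and 67.4% GC. ZNF264, a KRAB gene whose last exon runs to 11493 bp at 41.0% GC, had folds of 5.43 and 3.57 in its region. In ZNF428 and ZNF446 the row of replicate 2 lay outside the exon, in the same region as that of replicate 1. In ZNF358, ZNF562 and ZNF865 the row of replicate 2 in the region did not reach q below 0.05. It rested on 5, 5 and 8 read ends in these genes. The median GC content of the last exon was 63.0% in the 9 and 40.4% in the 231 members without.

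Members also differed from the other genes in base composition and place, so the comparison was repeated among narrower sets of genes. Whether either has a part in the differences was not tested. Members had a lower GC content than the other genes in every part, with medians of 52.3% against 58.8% around the start, 48.0% against 60.6% in other exons and 43.4% against 52.5% in introns. Among genes within the range of GC content that holds the middle 80% of members, the difference was 1.05 points at the start, -14.0 over other exons, -5.04 over the last exon and -20.4 over introns. Among the genes inside the 8 largest runs of neighbouring members it was 6.17, -11.7, -5.83 and -22.7 points. The difference over exons and introns stayed negative in both comparisons, at a smaller size, and both were added after the data had been seen. Among genes with at least 80% of their 32-base words unique in the genome it was 0.832, -26.7, -10.9 and -32.2 points, close to the values over all genes.

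**Figure D4:**
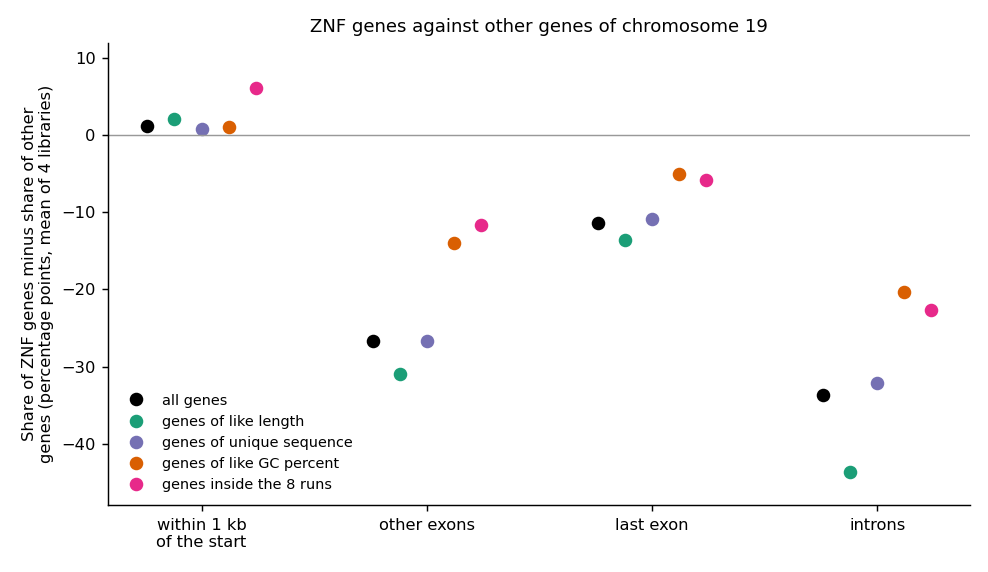
Share of ZNF genes with a row minus that of the other genes of chromosome 19 (y axis, percentage points, mean of 4 libraries) by part of the gene (x axis), over all genes and in 4 narrower comparisons. At the start all 5 values lie above 0, and over exons and introns all lie below 0, nearest to 0 among genes of like GC content or inside the runs.

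The members fell into 20 runs along the chromosome when neighbours with starts at most 500 kb apart were joined, and 8 runs of 10 or more genes held 218 of them. Regions of both replicates covered 0.438% of these 8 runs for H3K18bu and 0.646% for H4K12bu, against 1.65% and 2.31% of the rest of the chromosome. Among the 8, the lowest coverage by regions of both replicates was in the run from ZNF101 to ZNF254, 37 genes over 4.46 Mb from 19668796 to 24129968, which holds ZNF91, ZNF93, ZNF98 and ZNF208. There H3K18bu covered 0.131% and H4K12bu 0.177%. In this run 4 members (10.8%) had an H3K18bu region at the start and 3 (8.11%) an H4K12bu region. The run from ZNF565 to ZNF573, 24 genes over 1.64 Mb, was next, at 0.151% and 0.215%. By the rows of single libraries it was the lower of the pair in 3 of 4, at 0.143%, 0.224% and 0.305% against 0.236%, 0.252% and 0.394% in H3K18bu replicates 1 and 2 and H4K12bu replicate 2, and the higher in H4K12bu replicate 1 (0.420% against 0.310%). In the run from ZNF565 to ZNF573, 6 members had an H3K18bu region at the start and 6 an H4K12bu region. Among the 8, the highest H3K18bu share at starts was in the run from ZNF653 to ZNF791, at 12 of 25 members (48.0%). It was 15.4% of the 13 other genes there and 32.7% of all coding genes. H4K12bu was called there at 3 members (12.0%). The highest H4K12bu share was in the run from ZNF565 to ZNF573 (25.0%), beside 14.9% of all coding genes. The run from ZNF628 to ZNF835, the one with ZNF444, ZNF579, ZNF787 and ZNF865, had the highest H4K12bu coverage of the 8, 2.24%. Low coverage over a run and calls at its starts therefore did not go together in the same way in each run.

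**Figure D5:**
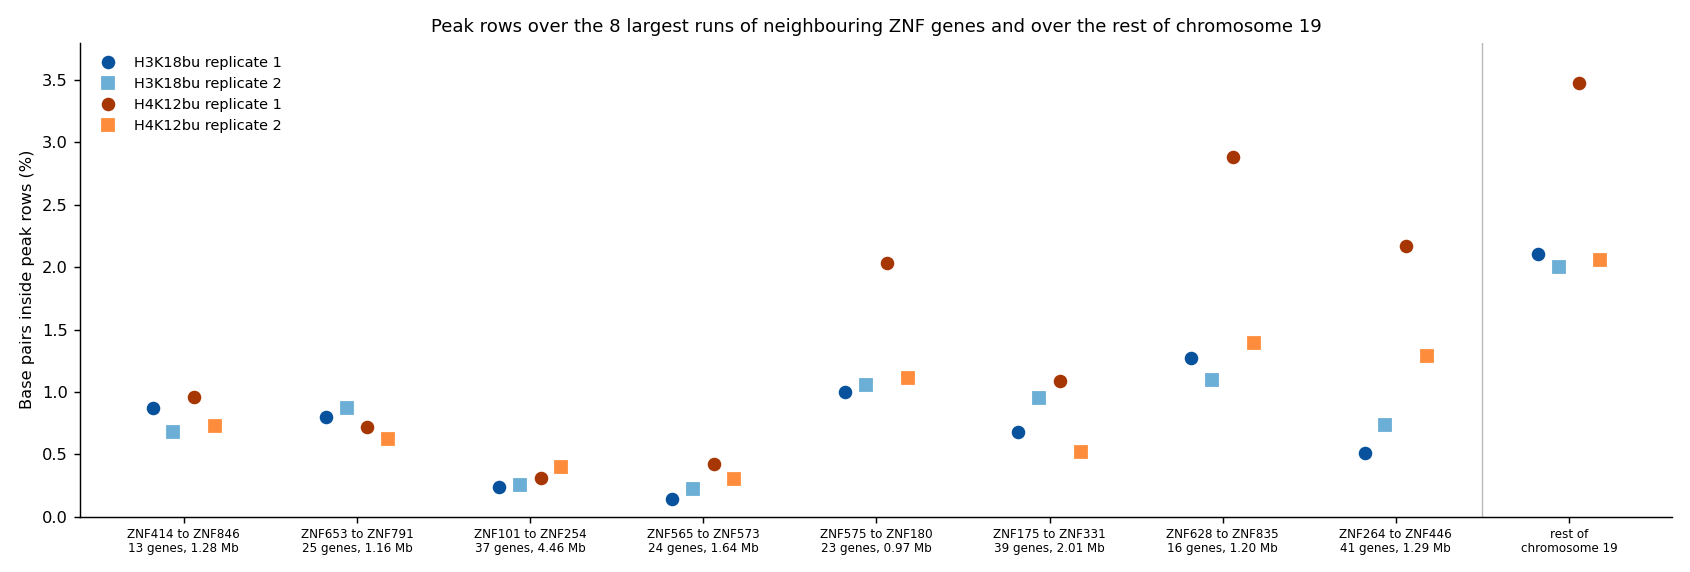
Percent of base pairs inside peak rows (y axis) over each of the 8 largest runs of ZNF genes and over the rest of chromosome 19 (x axis), with a point for each library. Every run lies below the rest of the chromosome in its library, and the runs from ZNF101 to ZNF254 and from ZNF565 to ZNF573 lie lowest.

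The extent of intron regions differed between members. For H3K18bu the most intron sequence in regions of both replicates per kb was in ZNF331 (42.2 bp per kb), ZNF536 (31.5) and ZNF85 (23.8), among members with at least 5 kb of introns. ZNF536, which spans 488696 bp and stands alone on its stretch of the chromosome, had 34 and 34 H3K18bu rows and 43 and 37 H4K12bu rows in its introns, in 10 H3K18bu and 11 H4K12bu regions, and no row at its start. ZNF331 had 5, 10, 14 and 3 rows in its introns. ZNF85, a KRAB gene of the run from ZNF101 to ZNF254, had 3, 1, 3 and 4, and no row at its start. For H4K12bu the leading members were ZNF444 (157 bp per kb), ZNF787 (136) and ZNF284 (106). ZNF444 and ZNF787 had no KRAB match. ZNF444 had 13 and 12 H4K12bu rows in its introns and 0 in both H3K18bu libraries, while its start had an H3K18bu region and no H4K12bu row. ZNF787 had 24 and 13 H4K12bu rows in introns beside 6 and 4 of H3K18bu. ZNF284, a KRAB gene, had 5 and 6 H4K12bu rows and no H3K18bu row in introns.

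The members with and without a KRAB match differed little at the start and more in the body. H3K18bu had a region at the start of 47 of 197 (23.9%) with a match and 12 of 43 (27.9%) without, beside 32.7% of all coding genes. H4K12bu had one at 19 (9.64%) and 3 (6.98%), beside 14.9%. In introns H3K18bu had a region in 4 (2.03%) with a match and 7 of 42 (16.7%) without, beside 46.4% of all coding genes. H4K12bu had one in 26 (13.2%) and 9 (21.4%), beside 58.6%. By the number of fingers, H3K18bu regions at the start were found at 3 of 11 members with up to 4 fingers and 10 of 52 with 5 to 9. They were found at 31 of 108 with 10 to 14 and 15 of 69 with 15 or more. These shares were 27.3%, 19.2%, 28.7% and 21.7%, around the 24.6% of all members and below the 32.7% of all coding genes. These groups were set side by side without a test, and they also differ in length and GC content.

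No row lay over the start, exons or introns of 68 members in any library (28.3%), against 12.8% of the other genes of the chromosome, 9.75% of the ZNF genes of other chromosomes and 10.4% of all coding genes. The 5 longest were ZNF98 (141467 bp), ZNF420 (122512 bp), ZNF577 (86135 bp), ZNF208 (77992 bp) and ZNF432 (64361 bp), all with a KRAB match. ZNF98 and ZNF208 belong to the run of ZNF91, and 75.9% and 64.9% of the 32-base words around their starts were unique in the genome. At ZNF420 and ZNF577 all such words were unique. The study's methods count depth in uniquely mapped reads, and whether other reads entered the peak calls is not given in the sources used here.

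ZNF genes elsewhere in the genome gave a further comparison. Of 236 coding genes named ZNF with digits on other chromosomes, 33.1% had an H3K18bu region at the start and 15.3% an H4K12bu region, close to the 32.7% and 14.9% of all coding genes. Their last exon had an H3K18bu region in 6.38% and an H4K12bu region in 22.6%, beside 7.23% and 13.6% of all coding genes, and their introns in 24.2% and 47.2%, beside 46.4% and 58.6%. Each of these shares was above that of the ZNF genes of chromosome 19. Zinc finger genes of chromosome 19 outside the naming rule were nearer to the members over the last exon. Of 31 with 5 or more fingers, 0 had an H3K18bu region there and 2 (6.45%) an H4K12bu region. Of 27 with zinc finger names, 0 and 1 (3.70%) did. In introns the shares were 22.6% and 38.7% of the 31, and 7.69% and 26.9% of 26 with such names. These differences were not tested.

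Genes that act with KRAB factors, and the H3K9me3 demethylases KDM4A, KDM4B, KDM4C and KDM4D, were read from a list of 22. An H3K18bu region lay at the start of 10 (45.5%, beside 32.7% of all coding genes) and an H4K12bu region at that of 5 (22.7%, beside 14.9%). A row was found for 11, 13, 8 and 6 in the 4 libraries, or 50.0%, 59.1%, 36.4% and 27.3%, where all coding genes had 41.9%, 47.3%, 28.3% and 27.8%. TRIM28, the partner of the KRAB domain and itself on chromosome 19, had H3K18bu folds of 7.07 and 11.3 and no H4K12bu row at its start. MPHOSPH8, a subunit of the HUSH silencing complex, had folds of 10.8, 5.66, 7.07 and 5.59. KDM4A, KDM4B and KDM4C, which remove H3K9me3, had regions of both marks. They are among the 10 and the 5 counted above. Apart from them, only MPHOSPH8 and SUV39H2 had an H4K12bu region at the start. KDM4D, of the same family, had a row at its start in H4K12bu replicate 1 only (fold 6.29). SETDB1 had a row in H3K18bu replicate 2 (4.25) and in H4K12bu replicate 1 (5.11) and no region in both replicates. ATRX, TASOR, PPHLN1, SUV39H1, EHMT2 and UHRF1 had no row at the start. Introns of 18 of the 22 carried an H4K12bu region (81.8%, beside 58.6% of all coding genes) and of 8 an H3K18bu region (36.4%, beside 46.4%). With 22 genes these shares are a description, and they were not tested.

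The label of the cells was compared with the same kind of values at marker genes, which are marks and not expression. Of 8 genes of colon epithelium, EPCAM and VIL1 had an H3K18bu region at the start and KRT18 an H4K12bu region, while CDH1, KRT19, KRT20 and CDX2 had no row there in any library. Of 8 fibroblast genes, COL1A2 and FN1 had an H3K18bu region at the start and COL1A2 also an H4K12bu region. A row at the start was found for 2, 3, 1 and 2 of the epithelial and for 4, 5, 1 and 2 of the fibroblast genes in the 4 libraries. The highest pileup was 19 read ends at VIL1 among the former and 17 at COL1A2 among the latter. Beside the 41.9%, 47.3%, 28.3% and 27.8% of all coding genes with a row, the epithelial genes were lower in every library (25.0%, 37.5%, 12.5% and 25.0%). The fibroblast genes were higher for H3K18bu (50.0% and 62.5%) and lower for H4K12bu (12.5% and 25.0%). In introns an H3K18bu region was found in 25.0% of the epithelial and 75.0% of the fibroblast genes, beside 46.4% of all coding genes. For H4K12bu these shares were 12.5% and 50.0%, beside 58.6%. Over other exons H3K18bu had a region in 25.0% and 50.0%, beside 14.2%. With 8 genes of each kind these counts are a description and were not tested, nor was their part in the values of the ZNF genes.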

How the data were processed

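CUT&Tag libraries of CCD841 cells were read from 1 list of peaks per library, deposited by the authors and called without pooling of replicates. The submitters' processing notes name bcl2fastq 2.17.1, cutadapt 1.9.1, Bowtie2 2.3.1, MACS2 2.1.0 and hg38. The names of the deposited lists carry a p of 0.01 and 300000, read here as the threshold and the most rows kept; the study's methods name MACS2 without these settings. The fold deposited by the authors is a ratio of the signal to the background around the peak. The −log10 p and −log10 q deposited by the authors come from the same comparison. The deposited score column was not used, and the summit offset (unit other) deposited beside it gave the summits; 2 rows of H4K12bu replicate 2 hold a position in its place. The lists hold no counts, so no count model was fitted. The study's methods give an average depth over samples, and the depth of each library was read here only through the pileup, solved from fold and p to within 0.01. No control library entered.

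Gene models were the Ensembl canonical transcripts of GENCODE 44. A row or region was given to a part of a gene by an overlap of at least 1 bp, and the start window (1 kb on each side) was taken out of exons and introns. A region of both replicates is a merged stretch with overlapping rows of each. KRAB and finger matches were searched in translated GRCh38 sequence, and the planned RefSeq promoter window was replaced by GRCh38 sequence. Shares were compared over libraries by exact permutation. Alternatives were the rows and summits counted, q thresholds, window, transcripts, length, uniqueness, GC content, place and libraries left out. Named members were 12 fixed names and leaders by −log10 p at the start (5 for each mark) and over the last exon (none had rows there in all 4 libraries), by intron coverage (3 for each mark) and, without rows, by length (5). Members, lists and tests were chosen with earlier results of these data known. Interval steps and the solver were tested on simulated data (100% of 757 planted rows and 99.9% of 5000 pileups recovered). The 8 mouse libraries of the series were not used. Python 3.11.15, numpy 2.4.6, pandas 2.3.3, scipy 1.17.1 and matplotlib 3.10.9 were used.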

Additional observations from a re-analysis of the deposited data

How the results depend on the processing

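The direction of the differences between marks, and of those between ZNF and other genes over exons and introns, held under every alternative run. With a window of 3 kb the mark difference at the start was 10.2 points. The difference from other genes at the start was 1.15 points and reversed to -3.32 with the same number of strongest rows, to -13.9 with every annotated transcript and to -11.6 with a window of 3 kb; the cause was not tested. It was 4.81 with a window of 500 bp, 2.06 among genes of like length, 2.02 by summits, 0.447 at q below 0.05, and between 0.344 (without H4K12bu replicate 1) and 1.83 (without H4K12bu replicate 2) with a library left out. Counts of members with a region at the start depended more on the rows taken. The H3K18bu count of 59 became 27 with the same number of strongest rows and 115 with a row in either replicate. The H4K12bu count of 22 became 13 at q below 0.05, 9 at q below 0.01, 10 with the strongest rows, 35 with every transcript and 79 with either replicate. The count with both marks, 18, became 9, 7 and 6 under those first 3 and 61 with either replicate.

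Leaving out each library in turn moved the H3K18bu count between 59 and 101 (101 without H3K18bu replicate 1), the H4K12bu count between 22 and 55 (47 without H4K12bu replicate 1, 55 without replicate 2) and the count with both marks between 18 and 36 (36 without H4K12bu replicate 2), since a single replicate then stands for a mark. Replicates of the marks share only a number, and with a replicate block the mark difference at the start stayed 15.8 points with an exact permutation p of 0.5, the smallest possible. The pileups of 5 to 12 read ends at most starts limit what an absent row can show.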
